A study of Drosophila melanogaster with 17 samples.

Results

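Guts of per01 flies were compared with guts of w1118 flies at day 40, in 3 RNA-seq libraries of each genotype, 6 of the 17 libraries of the series, across all 18354 genes of the gut count table. per01 is a null allele of period, which encodes the clock repressor PER. w1118 flies lack the white eye pigment transporter and serve as the wild type of the series. All flies were mated males, kept with 20 to a vial at 25 °C and 60% humidity in cycles of 12 h of light and 12 h of darkness, and their guts were dissected at ZT8, that is 8 h after lights on. Another 3 day 40 gut libraries, from orco2 mutants of the odorant co-receptor gene Orco, entered the fit to help estimate the spread between libraries. Their levels are given beside some of the results. Where they are not given, a difference between per01 and w1118 may be shared by orco2. The comparison asks what differs in the gut of old flies without a working clock repressor. With 1 time of day, a change of level and a shift of phase cannot be told apart. The labels do not state whether per01 had been crossed into the w1118 background, so the per allele and the rest of the strain's genome cannot be told apart. They also do not state whether libraries of a group came from separate cohorts, so the spread behind each p-value may be technical.

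In Drosophila the transcription factors CLK and CYC switch on per and tim by day, and the PER and TIM proteins later enter the nucleus and repress CLK and CYC. A second loop runs through vri and Pdp1, which repress and activate Clk. Many peripheral tissues hold clocks of their own, the midgut among them. The midgut epithelium consists of enterocytes, which secrete digestive enzymes and take up nutrients, enteroendocrine cells, which release peptide hormones, and intestinal stem cells, which renew both.

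The gut libraries held between 25792664 and 41693684 counts. The 100 genes with the most counts took 23.9 to 27.0% of the counts in w1118 and 35.0 to 40.2% in per01. TMM scaling factors, which correct for such differences in composition, were 1.11 to 1.15 in w1118, 1.16 to 1.19 in orco2 and 0.640, 0.700 and 0.956 in per01. Levels are TMM-scaled CPM, counts scaled to a common library total, and they compare 1 gene across libraries, not genes with each other. Replicate 1 of w1118 stood apart from the other 2 w1118 libraries in several gene groups described here. Replicate 3 of orco2 lay much closer to the mean of its 2 partners (median squared deviation over mean 3.17) than any other gut library did (25.2 to 69.1). The tissue label was checked against markers. Enterocyte proteases and maltases were abundant in all 6 libraries, whereas 16 neuronal and glial markers together summed to 50.3 to 219 CPM in w1118 and 31.8 to 71.1 CPM in per01.

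Of 13453 genes tested, 2554 (19.0%) changed at an adjusted p under 0.05, by edgeR's quasi-likelihood test with Benjamini-Hochberg adjustment. Of these, 1299 (9.66%) were higher and 1255 (9.33%) were lower in per01. An unadjusted p under 0.05 was reached by 4636 genes. By at least 4-fold, 551 rose and 432 fell. The 6 libraries did not overlap for 2471 of the changed genes. Among all genes tested, 16.0% had all 3 per01 libraries above the w1118 libraries and 16.6% had them all below. The median log2 fold change over all genes tested was 0.0042. Across 19 alternative ways of fitting, 420 genes were called in the same direction every time, 206 higher and 214 lower, none of them from the reproductive lists, which 1 alternative removes. Leaving out orco2 replicate 3 reduced the count to 1311, w1118 replicate 2 to 973, w1118 replicate 3 to 1115 and per01 replicate 2 to 1076. The 4 lists of reproductive tract genes were kept apart throughout, and of their 174 tested members 45 rose and 0 fell. Among the 13279 other genes, 1254 rose and 1255 fell.

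The clock loop of per01 guts held more tim, less Clk and less cry RNA than that of w1118 guts. These were 3 of the 8 core clock genes, and each kept its call in every alternative. The level of tim (chromosome 2L, 3493986 to 3508119), which encodes PER's partner in repression, was 308, 317 and 363 CPM in w1118 and 679, 818 and 1238 CPM in per01. All 3 per01 libraries lay above all w1118 libraries, with a log2 fold change of 1.47 ± 0.28 (SE) and an adjusted p of 0.0118. Clk (chromosome 3L, 7763233 to 7775603), the activator of the loop, stood at 82.9, 94.5 and 74.2 CPM in w1118 and 18.1, 12.6 and 24.6 CPM in per01. It fell by 2.19 on the log2 scale, with an SE of 0.27 and an adjusted p of 0.00363. The level of cry (chromosome 3R, 19212154 to 19215442), which encodes the blue light receptor that also acts as a repressor in peripheral clocks, was 223, 159 and 242 CPM in w1118 and 42.2, 62.1 and 57.1 CPM in per01, and its log2 fold change was -1.95 ± 0.25 (adjusted p = 0.00389). In the orco2 guts tim stood at 85.6, 64.9 and 71.7 CPM, below w1118, and Clk at 37.6, 44.5 and 41.5 CPM, between both other genotypes. In bulk tissue, a change in the number of cells of a type and a change of RNA per cell cannot be told apart, here and for the groups that follow.

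The other 5 core genes did not pass the threshold in the fit across all genes. The RNA of per itself (chromosome X, 2685580 to 2692780) was 31.4, 81.6 and 55.9 CPM in w1118 and 22.9, 34.1 and 36.5 CPM in per01. The groups overlapped, and the log2 fold change was -0.85 ± 0.36 (adjusted p = 0.129). The per01 lesion is known as a nonsense change in the coding region, so the RNA level does not check the genotype. For vri, whose product is the repressor of the second loop, levels were 221, 113 and 151 CPM in w1118 and 199.8, 252 and 375 CPM in per01, with a log2 fold change of 0.77 ± 0.31 (adjusted p = 0.121). cwo, a further repressor, had a log2 fold change of -0.50 ± 0.26, cyc of -0.26 ± 0.21 and Pdp1 of 0.15 ± 0.30, with adjusted p of 0.204, 0.433 and 0.799. Libraries of the 2 genotypes overlapped for each of these 3 genes. The strand setting of the count is not given in the sources used here. Clk overlaps CG32371 on its own strand and cry overlaps vib on the opposite one, so a part of their reads may come from those neighbours.

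**Figure D1:**
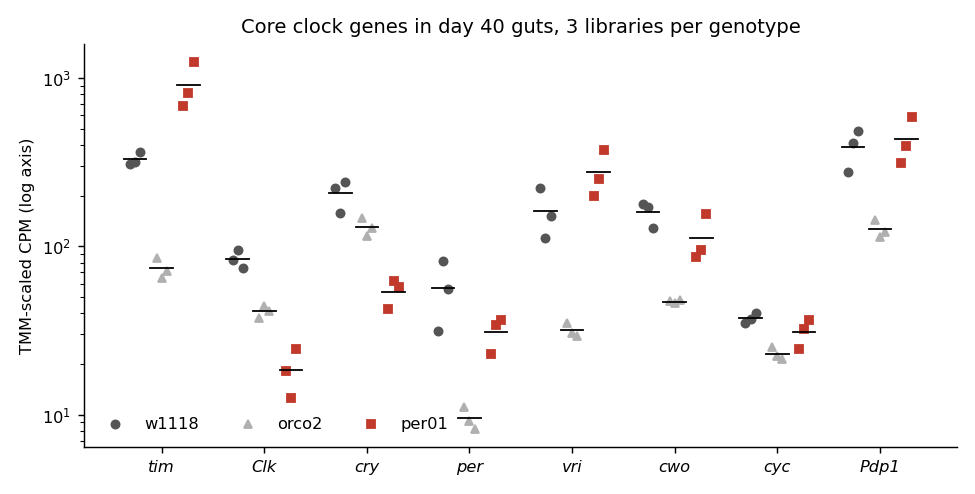
Level of the 8 core clock genes in each day 40 gut library, as TMM-scaled CPM on a log axis, with 3 points for each genotype and a line at their mean. The per01 points lie above the w1118 points for tim and below them for Clk and cry, and the points of these genotypes overlap for the other 5 genes.

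Among 18 genes for clock kinases, phosphatases and protein turnover, 1 rose and 5 fell (median log2 fold change -0.52). CkIIalpha, a catalytic subunit of casein kinase 2, which phosphorylates PER, rose by 0.84 on the log2 scale (adjusted p = 0.0259). Atx2 and tyf, whose products promote per translation, had log2 fold changes of -1.21 and -0.89, and the F-box gene Fbxl4, alias jetlag, of -1.33. The 5 that fell also include the kinase gene sgg and the phosphatase subunit gene wdb, at -0.89 and -0.83. With an offset for exon length 1 of the 18 fell and 2 rose, and tyf changed sign (0.11), whereas Fbxl4 and CkIIalpha kept their calls. The number lower was 2 without w1118 replicate 2 or per01 replicate 2, 1 without w1118 replicate 3 and 3 without orco2 replicate 3. CkIIalpha was called in 10 of the 19 alternatives. The number higher was 0 without w1118 replicate 2 or 3, per01 replicate 2 or 3 or orco2 replicate 3. It was also 0 with the 6 compared libraries alone.

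Digestive enzyme genes rose in per01 guts. Of 32 gut protease genes tested, 27 rose and 0 fell, with a median log2 fold change of 3.00, and 17 of them rose in every alternative. Their summed level was 21791, 12183 and 13035 CPM in w1118 and 106059, 171558 and 189178 CPM in per01. The lowest per01 library lay above the highest w1118 library, and the share of all counts on these genes was 1.40 to 2.47% in w1118 and 10.1 to 12.1% in per01. In orco2 guts the sum was 41642, 20585 and 31352 CPM. All 32 tested genes had a positive log2 fold change.

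The Jonah genes encode midgut serine proteases. Jon99Cii (chromosome 3R, 29923754 to 29924615) stood at 396, 199.6 and 269 CPM in w1118 and 6225, 15778 and 11413 CPM in per01, a log2 fold change of 5.27 ± 0.58 (adjusted p = 0.00313). Jon99Fi rose by 5.49 ± 0.63, Jon99Ciii by 4.39 ± 0.50 and Jon65Ai by 4.60 ± 0.60 on the log2 scale. All of these groups were separate. The Jonah genes lie in clusters of near-identical copies, and the multi-mapping setting of the count is not given in the sources used here, so the division of reads within a cluster is uncertain. Among the genes with the most counts of all, the trypsin gene betaTry stood at 2697, 1721 and 1426 CPM in w1118 and 21543, 35552 and 42515 CPM in per01 (log2 fold change 4.09 ± 0.55). alphaTry, yip7 and Jon65Aiv, also among the 10 with the most counts, rose by 3.15, 2.63 and 2.70. Others of those 10, CG8997, CG7953 and the mucin gene Mur18B, did not pass, at 2.43 ± 0.85, 1.94 ± 0.95 and -0.61 ± 0.59. CG12374, annotated here by symbol only, went from 62.3, 22.5 and 20.3 CPM in w1118 to 5587, 6305 and 17576 CPM in per01, a log2 fold change of 8.13 ± 0.92. CG6296 rose by 7.24 ± 0.62 and CG7542, chosen after its value was seen, by 6.74 ± 0.76.

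Carbohydrate digestion genes moved the same way, with 9 of 18 higher, 0 lower and a median log2 fold change of 2.70. The glucosidase gene tobi (chromosome 3R, 25344761 to 25346921), known as a target of brain insulin and adipokinetic signals, stood at 1012, 435 and 485 CPM in w1118 and 13073, 10332 and 24465 CPM in per01. Its log2 fold change was 4.63 ± 0.54 (adjusted p = 0.0032), and in orco2 guts it was nearly silent at 2.22, 2.13 and 2.42 CPM. The amylase gene Amy-p stood at 1911, 1193 and 1156 CPM in w1118 and 10353, 26039.9 and 20062 CPM in per01, with a log2 fold change of 3.73 ± 0.52. Its near-identical copy Amy-d rose by 4.16 ± 0.78, and Amyrel, an amylase relative, by 3.46 ± 0.40. The number higher was 4 without w1118 replicate 2, w1118 replicate 3 or per01 replicate 3 and with the 6 compared libraries alone, and 5 without orco2 replicate 3. tobi, Amy-p and Amyrel kept their calls in all alternatives that tested them.

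The maltases depended more on which w1118 library was used. Mal-A1 stood at 6764, 1375 and 1104 CPM in w1118 and 18758, 15231 and 33832 CPM in per01, and its adjusted p was 0.0348. Replicate 1 of w1118 lay well above the other 2, as it did for the sum over the list, which was 21297, 4900.2 and 4564 CPM in w1118 and 75211, 86007 and 136231 CPM in per01. In orco2 guts the sum was 13680 to 21704 CPM. Without w1118 replicate 1, 14 of the 18 genes rose, and Mal-A1 was called in 10 of the 19 alternatives. Mal-A6 rose by 3.51, whereas Mal-A7 and Mal-A2, at 3.16 and 1.89, missed the threshold (adjusted p = 0.0576 and 0.137) although their libraries did not overlap.

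Of 29 genes for lipid uptake and storage, 6 rose and 0 fell (median 0.53). mag, which encodes the secreted triglyceride lipase Magro, stood at 433, 169 and 219 CPM in w1118 and 2286, 3009 and 3476 CPM in per01, a log2 fold change of 3.42 ± 0.42 (adjusted p = 0.00366). Npc2d, a gene of the sterol-binding NPC2 family, rose by 3.96 ± 0.55, the lipase gene Lip3 by 4.20 ± 0.81 and Gpat4, for an enzyme of glycerolipid synthesis, by 1.46 ± 0.26. The 23 other genes, among them those for fatty acid synthesis and lipid droplets, did not pass. Without w1118 replicate 1, 11 of the 29 rose and 1 fell. The number higher was 4 without w1118 replicate 2, w1118 replicate 3 or per01 replicate 2 and with the length offset. It was 3 with the 6 compared libraries alone. With plain library sizes 6 rose and 7 fell.

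**Figure D2:**
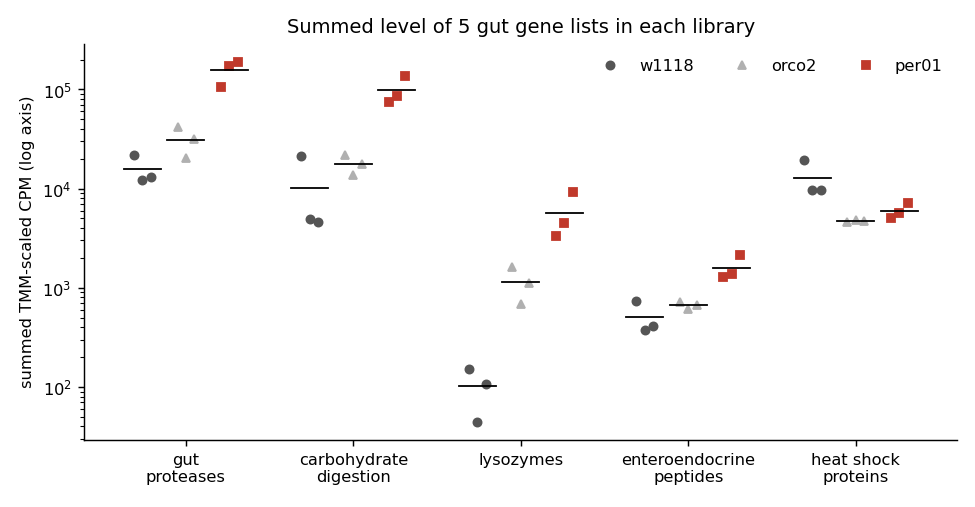
Summed TMM-scaled CPM of gene groups in each day 40 gut library, on a log axis, with 3 points for each genotype and a line at their mean. The per01 points for proteases and carbohydrate digestion lie above all w1118 points, and those for heat shock proteins lie below them.

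Lysozyme genes had the highest median log2 fold change of the 29 lists of clock and gut function, 5.09. Of 7 genes, 4 rose and 1 fell. Digestive lysozymes of the fly midgut break down the walls of ingested bacteria. LysC (chromosome 3L, 1210485 to 1210726) had 0, 0 and 0 counts in w1118 and 53173, 28713 and 90778 in per01. Against a floor of 3 counts over the w1118 group it was at least 86291-fold higher. The median stays the same with LysC at this bound. In orco2 guts LysC stood at 58, 26.1 and 47.7 CPM. LysD stood at 0.111, 0.608 and 0.662 CPM in w1118 and 990.2, 2075 and 3081 CPM in per01, and LysB at 1.13, 1.32 and 0.592 CPM in w1118 and 619.9, 849 and 1679.8 CPM in per01. LysX moved the other way, from 149.8, 40.3 and 26.5 CPM to 0.0601, 1.06 and 0.932 CPM, a log2 fold change of -6.76 ± 1.07 (adjusted p = 0.00769). LysS, chosen after its value was seen, rose by 5.09 ± 1.51. LysE missed the threshold at 3.16 ± 1.08 (adjusted p = 0.0755), as did LysP. LysB, LysC, LysD, LysE and LysP lie within the annotated span of mwh, and LysC and LysD overlap on opposite strands. The strand setting of the count is not given, so the split of reads among LysB, LysC and LysD is uncertain. The sum over the 7 genes does not depend on that split among them, and it was 154, 44 and 106 CPM in w1118 and 3331, 4539 and 9222 CPM in per01. In orco2 guts it was 694 to 1630 CPM, above every w1118 library.

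Immune genes moved in mixed directions. Among 31 genes for peptidoglycan recognition and immune signalling, 3 rose and 8 fell. Over all genes tested 9.66% rose and 9.33% fell, so the share of rises was near that of all genes. The 3 that rose encode secreted amidases, which cut peptidoglycan and so dampen the Imd pathway. PGRP-SC1a stood at 2.04, 2.78 and 4.74 CPM in w1118 and 43, 143 and 73 CPM in per01 (log2 fold change 4.76 ± 0.54, adjusted p = 0.00313), PGRP-SC1b rose by 4.65 ± 0.57 and PGRP-SC2 by 2.57 ± 0.47. The first 2 are near-identical neighbours. The genes that fell encode parts of the signalling chains. PGRP-LC, the Imd receptor gene, stood at 129, 226 and 198 CPM in w1118 and 38.1, 60.2 and 70.5 CPM in per01 (log2 fold change -1.71 ± 0.30, adjusted p = 0.00957). The adaptor gene imd had a log2 fold change of -1.44 and the NF-κB gene Rel of -1.28. On the Toll side the NF-κB genes dl and Dif had -1.27 and -1.17, and the receptor gene Tl -1.65. With the exon length offset 2 of the 31 genes fell, PGRP-LC among them, and dl lost its call only there. The number lower was 5 without w1118 replicate 2 or orco2 replicate 3, 3 without w1118 replicate 3 and 4 without per01 replicate 2.

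None of 11 Imd-regulated antimicrobial peptide genes passed the threshold by edgeR (median log2 fold change -0.91). Of the 11, 4 had an unadjusted p under 0.05, 0 passed by limma-voom and 4 fell by DESeq2's Wald test. DptB stood at 11.8, 45.3 and 2.02 CPM in w1118 and 5.11, 2.18 and 1.16 CPM in per01, with overlapping groups and a log2 fold change of -2.80 ± 1.04 (adjusted p = 0.0947). AttB and AttD had log2 fold changes of -2.66 ± 1.23 and -2.20 ± 0.81, and CecA1 of -0.12 ± 1.09. Of 23 Toll-regulated and other immune peptides, 2 rose and 1 fell, beside 9.66% higher and 9.33% lower among all genes tested. Drsl2, a relative of Drosomycin, stood at 0.222, 0.0529 and 0.174 CPM in w1118 and 11.1, 1.62 and 4.75 CPM in per01 (log2 fold change 5.25 ± 0.89). BomT2, a Bomanin gene, rose by 1.48 ± 0.38 and was called in 9 of the 19 alternatives. Dso2, a Daisho peptide gene, had 21, 13 and 14 counts in w1118 and 0, 0 and 0 in per01, at least 10.7-fold lower.

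Heat shock genes fell. Of 22 genes, 13 fell and 0 rose, with a median log2 fold change of -2.39. The 5 that fell in every alternative were stv and copies of Hsp70. The summed level of the list was 19334, 9753 and 9586 CPM in w1118 and 5084, 5666 and 7159 CPM in per01, against 4618, 4867 and 4768 CPM in orco2. The 2 genotypes did not overlap, and w1118 stood above both mutants. Hsp70Bc (chromosome 3R, 12509076 to 12511461), a copy of the inducible chaperone gene, stood at 161, 48.6 and 68.5 CPM in w1118 and 1.47, 0.253 and 3.21 CPM in per01 (log2 fold change -5.81 ± 0.92, adjusted p = 0.00741). Hsp70Ba and Hsp70Bb had -5.70 ± 0.96 and -5.01 ± 0.83, but the Hsp70 copies share nearly all their sequence and are not separable here. Their calls are therefore not independent of each other. stv, which encodes the co-chaperone Starvin, stood at 1262, 606 and 632 CPM in w1118 and 115, 103 and 196 CPM in per01 (log2 fold change -2.59 ± 0.38, adjusted p = 0.00596). Hsp68 had a log2 fold change of -4.64, and the small heat shock genes Hsp26 and Hsp23 of -3.40 and -4.37. Hsp83, the Hsp90 gene, stood at 5209.9, 2317 and 2421 CPM in w1118 and 1029, 854 and 1679.8 CPM in per01, and its call (adjusted p = 0.0401) held in 8 of the 19 alternatives. Replicate 1 of w1118 was the highest library of the list. Without it 9 of the 22 genes fell and 1 rose. The number lower was 6 without per01 replicate 2, 8 without w1118 replicate 2 or orco2 replicate 3, and 5 with the 6 compared libraries alone and with the seminal fluid level as a covariate.

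Detoxification genes that changed mostly rose. Of 79 cytochrome P450 genes 17 rose and 9 fell, beside 9.66% higher and 9.33% lower among all genes tested. The share of falls was near that of all genes. The list summed to 5296 to 6707 CPM in w1118, 10447 to 18333 CPM in per01 and 8727 to 16724 CPM in orco2. In every alternative 9 rises and 6 falls were called. Without w1118 replicate 2 or 3, 11 rose. Cyp4d1 stood at 4.79, 1.61 and 1.36 CPM in w1118 and 47.1, 43.7 and 72.4 CPM in per01 (log2 fold change 4.39 ± 0.53, adjusted p = 0.00342). Cyp28d1, Cyp12d1-p and Cyp4p1 rose by 3.21 ± 0.39, 3.17 ± 0.37 and 2.55 ± 0.32. Cyp12d1-p has a near-identical neighbour, Cyp12d1-d. Of 34 UDP-glycosyltransferase genes, whose products attach sugars to toxins, 13 rose and 1 fell. Their list summed to 780 to 1302 CPM in w1118, 3835 to 5765 CPM in per01 and 2072 to 2234 CPM in orco2. Ugt35C1 (chromosome 3R, 11126597 to 11128328) stood at 47.1, 46.4 and 73.7 CPM in w1118 and 1641, 1669 and 2956 CPM in per01, a 37.5-fold rise (log2 fold change 5.23 ± 0.41, adjusted p = 0.00166). Ugt35A1, Ugt35B1 and Ugt37A3 rose by 2.22, 2.74 and 3.78. The number of these that rose was 4 without w1118 replicate 2, w1118 replicate 3 or per01 replicate 2, 5 without per01 replicate 3 or orco2 replicate 3 and with the length offset, and 2 with the 6 compared libraries alone. With plain library sizes 9 rose and 7 fell. Of 35 glutathione transferase genes 6 rose and 1 fell. The one that fell, GstE1, stood at 91.3, 52.9 and 77.1 CPM in w1118 and 4.63, 8.72 and 12.4 CPM in per01 (log2 fold change -3.10 ± 0.39, adjusted p = 0.00389), whereas GstZ1, GstD7 and GstT4 rose by 2.45, 2.09 and 2.01. Of the 35, 2 rose without w1118 replicate 2 or 3 and 3 without per01 replicate 3 or orco2 replicate 3. Without per01 replicate 1 10 rose, and 13 did without w1118 replicate 1. GstD7 and GstT4 lost their calls with the length offset, and 1 rise and 1 fall held in every alternative. The median exon length of the list was 881 bases. Among all tested genes with exon lengths of 865 to 1119 bases, 15.7% rose. Of 19 enzymes that handle reactive oxygen 17 did not pass. The peroxiredoxin gene Prx2 rose by 1.20 ± 0.33 and the immune-regulated catalase gene Irc fell, at -1.01 ± 0.29. Each share was below the 9.66% higher and 9.33% lower of all genes tested. Prx2 was called in 9 and Irc in 10 of the 19 alternatives, neither with the length offset.

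Metal transport genes included one of the 3 genes with the smallest p of all. Ctr1B (chromosome 3R, 8317612 to 8319205), a copper importer that midgut cells make when copper is scarce, stood at 33.3, 40.9 and 50.3 CPM in w1118 and 555, 764 and 775 CPM in per01, a 16.8-fold rise. Its log2 fold change was 4.07 ± 0.27 (adjusted p = 0.000849), and orco2 guts held 417, 363 and 381 CPM, also above every w1118 library. The related importer gene Ctr1A rose by 1.15 ± 0.26. The transferrin genes Tsf1 and Tsf3, for iron-binding proteins, had log2 fold changes of -2.15 ± 0.34 and -2.29 ± 0.32. Of the 20 genes of the list 3 rose and 2 fell, beside 9.66% higher and 9.33% lower among all genes tested. The share of falls was near that of all genes. The number higher was 1 without w1118 replicate 2 or 3, 5 without per01 replicate 1 and 8 without w1118 replicate 1.

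Of 17 enteroendocrine genes, 6 rose and 1 fell, with a median log2 fold change of 1.96 and a summed level of 733, 379 and 414 CPM in w1118 and 1295, 1377 and 2119 CPM in per01. These genes encode gut peptide hormones and the enzymes that mature them. CCHa2, for a nutrient-responsive peptide, stood at 39.5, 6.45 and 18.5 CPM in w1118 and 177, 129 and 354 CPM in per01 (log2 fold change 3.35 ± 0.65, adjusted p = 0.0133). Nplp2, NPF and AstC rose by 2.96 ± 0.60, 3.09 ± 0.69 and 3.35 ± 0.83. Tk, the tachykinin gene, missed the threshold at 2.84 ± 0.96 (adjusted p = 0.0717), and Dh31 and AstA did so at 2.03 and 0.87. The one that fell was Pal1, which encodes an enzyme of peptide amidation, at -1.30 ± 0.27. The calls rested on the libraries used. Without w1118 replicate 3, or with the 6 compared libraries alone, 0 of the 17 rose, and without w1118 replicate 1, the highest w1118 library of the list, 9 did.

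Genes of insulin, adipokinetic and feeding signals mostly fell where they moved, with 1 of 23 higher and 6 lower. ImpL2, for a secreted protein that binds insulin-like peptides, stood at 52.7, 139 and 102 CPM in w1118 and 12.4, 10.4 and 16 CPM in per01 (log2 fold change -2.92 ± 0.40, adjusted p = 0.00489). daw, for the activin-like ligand Dawdle, stood at 40.1, 69.9 and 58.2 CPM in w1118 and 2.32, 12.3 and 8.01 CPM in per01 (log2 fold change -2.90 ± 0.55). Both fell in every alternative. The salt-inducible kinase genes Sik2 and Sik3 had -1.95 and -1.42, the insulin receptor gene InR -0.86, and the translation repressor gene Thor rose by 1.06. InR was called in 11 of the 19 alternatives and Thor in 7 of the 19, and with the exon length offset 2 of the 23 fell and the sign of InR turned (0.14).

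**Figure D3:**
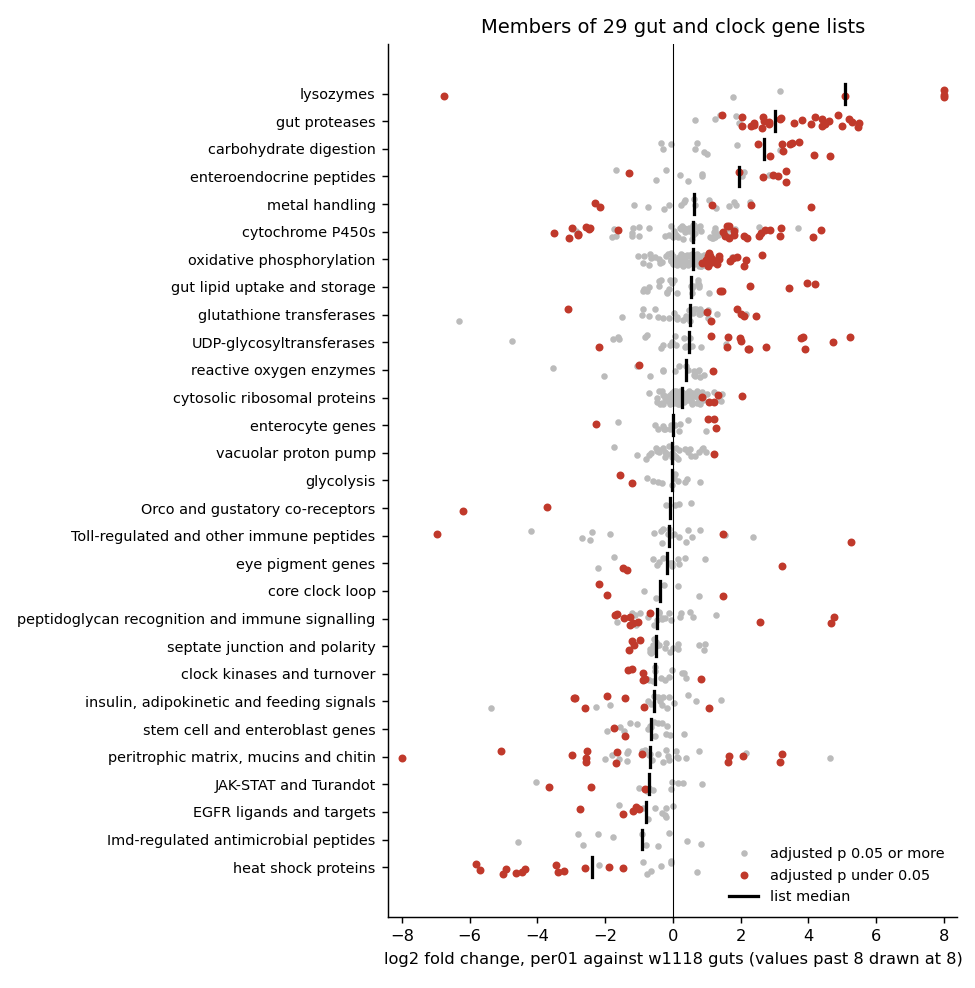
Log2 fold change, per01 against w1118, of every tested gene in the 29 lists of clock and gut function, 1 row for each list, with genes past the threshold drawn in colour and values beyond 8 or -8 drawn at the edge. Most proteases, carbohydrate digestion genes and lysozymes lie to the right of 0, and most heat shock genes lie to the left.

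The difference between genotypes went with gene length. In the shortest decile of genes by exon length (72 to 618 bases) the median log2 fold change was 0.71, with 18.0% of genes higher and 2.31% lower. In the longest decile (5210 to 71820 bases) the median was -0.81, with 0.969% higher and 35.0% lower. The median deviation of the longest decile from the mean of all 9 libraries was 0.47 to 0.56 in w1118, -0.34 to -0.04 in per01 and -0.37 to -0.30 in orco2 on the log2 scale. The shortest decile was less uniform, at -1.01 to -0.24 in w1118 and at 0.56, 0.19 and -1.15 in the 3 per01 libraries. The labels give no RNA quality values, so the part of RNA integrity in this trend was not tested. With an offset for exon length 989 genes changed, 556 higher and 433 lower.

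**Figure D4:**
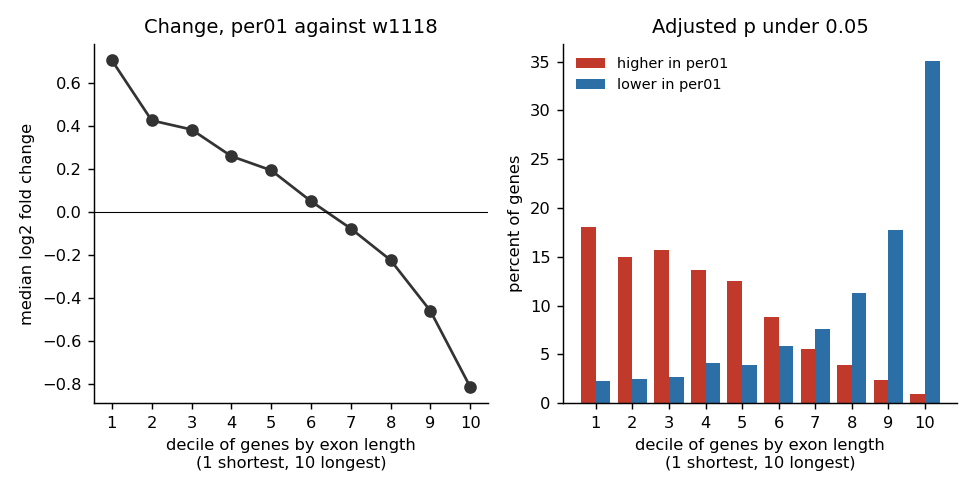
Left, median log2 fold change of per01 against w1118 in deciles of the tested genes ordered by exon length. Right, the percentage of genes past the threshold in each decile, higher or lower in per01. The median falls from 0.71 in the shortest decile to -0.81 in the longest.

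Few genes of the septate junction and stem cell lists passed the threshold. Of 24 septate junction and polarity genes 4 fell and 0 rose (median log2 fold change -0.50, median exon length 6014 bases). They were baz, scrib, dlg1 and cora, at -1.28, -1.16, -0.97 and -1.22. With the length offset 0 of the 24 changed, and scrib and dlg1 turned to 0.06 and 0.04. The summed level of the 24 overlapped between the genotypes (exact two-sided permutation p = 1). Without per01 replicate 2, 2 of the 24 fell, and without w1118 replicate 1 5 rose and 4 fell. Of 14 EGFR genes 5 fell and 0 rose. Their list summed to 406 to 440 CPM in w1118, 234 to 329 CPM in per01 and 181 to 187 CPM in orco2. Egfr, the receptor gene, stood at 92.9, 76.5 and 77.2 CPM in w1118 and 30.9, 36.6 and 41.6 CPM in per01 (log2 fold change -1.17 ± 0.19, adjusted p = 0.00816). The ligand gene grk had -1.48, and S and ru, whose products help to process EGFR ligands, -0.9998 and -2.75. With the length offset 1 of the 14 fell, and it was not Egfr, which lost its call only there. Over the leave-one-out fits, 1 fell without w1118 replicate 2, per01 replicate 2 or orco2 replicate 3, 2 without w1118 replicate 3 or per01 replicate 1 and 3 without per01 replicate 3. Of 18 stem cell and enteroblast genes 2 fell and 0 rose, E(spl)mbeta-HLH, a Notch target, at -1.72 ± 0.44 and chn at -1.41 ± 0.37. That share of the list is near the 9.33% of all genes that were lower. Without w1118 replicate 2, w1118 replicate 3, per01 replicate 2 or orco2 replicate 3, 0 of the 18 fell, and 0 did with the length offset, the seminal fluid covariate or the 1.5-fold threshold. E(spl)mbeta-HLH was called in 11 and chn in 9 of the 19 alternatives. The markers esg and Dl of intestinal stem cells were not analysed here.

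The JAK-STAT pathway, which drives stem cell division after gut damage, showed 3 lower genes of 13, and 2 with the length offset. The list summed to 419 to 764 CPM in w1118, 296 to 507 CPM in per01 and 281 to 294 CPM in orco2. Socs36E (chromosome 2L, 18138675 to 18152417), a target and feedback inhibitor of the pathway, stood at 161, 85.8 and 108 CPM in w1118 and 20.7, 21.5 and 24.3 CPM in per01. All per01 libraries lay below all w1118 libraries, at a log2 fold change of -2.41 ± 0.26 (adjusted p = 0.00313), and the call held in every alternative, the length offset included. The cytokine gene upd3 stood at 10.4, 10.2 and 5.33 CPM in w1118 and 1.11, 0.405 and 0.512 CPM in per01 (log2 fold change -3.65 ± 0.61, adjusted p = 0.00873). upd2 missed the threshold at -4.04 ± 1.35 (adjusted p = 0.0697). hop, the kinase gene, had -0.83 and was called in 8 of the 19 alternatives, and the receptor gene dome, at -0.76, was not called.

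Barrier genes split. Of 37 genes for the peritrophic matrix, mucins and chitin, 5 rose and 9 fell, beside 9.66% higher and 9.33% lower among all genes tested. Peritrophin-15a, for a chitin-binding protein of the matrix, stood at 74.1, 30.7 and 27.7 CPM in w1118 and 284, 441 and 452 CPM in per01 (log2 fold change 3.15 ± 0.47). The mucin gene Muc68E rose by 3.23 ± 0.60 and Muc68Ca had -2.58 ± 0.51. obst-F had 39, 30 and 103 counts in w1118 and 0, 0 and 0 in per01, at least 38.2-fold lower. The number lower was 2 without w1118 replicate 2 or 3 and with the replicate block, 3 without orco2 replicate 3, and 4 without per01 replicate 2 or 3, by limma-voom and with the length offset. The number higher was 3 without w1118 replicate 2 and 2 without w1118 replicate 3 or per01 replicate 2. Of 18 enterocyte genes 3 rose and 1 fell, with Alp12, Alp13 and Vha100-4, the last also a marker of the middle midgut, at 1.03, 1.28 and 1.20, and the cadherin gene Cad99C at -2.27 ± 0.42. Without w1118 replicate 2, per01 replicate 2, per01 replicate 3 or orco2 replicate 3, 0 of the 18 rose, and 1 did without w1118 replicate 3.

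Some genes of other gut regions and layers also differed. The hindgut transcription factor gene byn (chromosome 3L, 11927693 to 11935919) stood at 121, 426 and 341 CPM in w1118 and 16.9, 51.2 and 41.4 CPM in per01 (log2 fold change -3.02 ± 0.55, adjusted p = 0.0109), and in orco2 at 51.6, 35.7 and 41 CPM. The hormone receptor gene Lgr1 had -2.80 ± 0.45. Both fell in every alternative. Of 25 muscle genes 7 fell and 1 rose, but the median log2 fold change was 0.036 and 13 of the 25 were positive. Their summed level was 8471, 11552 and 10182 CPM in w1118, 5392, 6842 and 7923 CPM in per01 and 3526 to 4278 CPM in orco2. Msp300, for a giant nuclear anchoring protein, stood at 1269, 1263 and 1172 CPM in w1118 and 200.1, 199 and 204 CPM in per01 (log2 fold change -2.62 ± 0.21, adjusted p = 0.00166). It and sls, the titin gene (-2.64 ± 0.39), lost their calls only with the length offset, under which 0 of the 25 fell. The number lower was 3 without per01 replicate 2 and 4 without w1118 replicate 2 or 3. Of 15 haemocyte and tracheal genes 3 fell and 1 rose. The one that rose was PPO1, a prophenoloxidase gene of crystal cells, chosen after its value was seen, from 0.0886, 0.159 and 0.139 CPM in w1118 to 2.1, 2.43 and 4.29 CPM in per01 (log2 fold change 4.48 ± 0.51). btl, the tracheal FGF receptor gene, had -3.17 ± 0.43 and dpy, for an apical matrix protein, -3.22 ± 0.29, both in every alternative. With the length offset 2 of the 15 rose and 3 fell. Their list summed to 474 to 618 CPM in w1118, 228 to 312 CPM in per01 and 248 to 268 CPM in orco2. Fat body markers summed to 798 to 1451 CPM in w1118 and 1003 to 1618 CPM in per01, Malpighian tubule markers to 3077 to 7413 CPM in w1118 and 3398 to 6189.5 CPM in per01, and cuticle genes of crop and hindgut to 248 to 503 CPM in w1118 and 171 to 473 CPM in per01. In these lists 3 of 16, 3 of 18 and 0 of 46 rose, and 1, 1 and 3 fell. Among all genes tested 9.66% were higher and 9.33% lower, so the share of falls was below that of all genes in each. The summed level of each overlapped between the genotypes. The part of unequal dissection of gut regions or neighbouring tissue in these and the digestive results was not tested.

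Of 88 oxidative phosphorylation genes 20 rose and 0 fell (median log2 fold change 0.59, median exon length 844 bases). ND-AGGG, ND-15 and UQCR-11, subunits of complexes I and III, rose by 2.62 ± 0.30, 1.78 ± 0.28 and 1.90 ± 0.30 and did so in every alternative. With the length offset 4 of the 88 rose. The calls rested on the libraries used. Without per01 replicate 1, 42 rose and 4 fell, and without w1118 replicate 1, 9 rose and 1 fell. The number higher was 5 without w1118 replicate 2, 6 without w1118 replicate 3 or per01 replicate 2, and 8 without per01 replicate 3 or orco2 replicate 3. With plain library sizes 8 rose and 3 fell. The 38 genes of the mitochondrial genome have 0 counts in the table and were not analysed. Of 91 cytosolic ribosomal protein genes 5 rose, RpL38 by 2.04 ± 0.51 and RpL39 by 1.33 ± 0.37 among them, a lower share than the 9.66% of all genes. With the length offset 0 rose, as without w1118 replicate 2, w1118 replicate 3 or per01 replicate 2. Without per01 replicate 3 or orco2 replicate 3, 1 rose, and without per01 replicate 1, 24 did. With plain library sizes 1 rose and 20 fell. Of 13 glycolysis genes 2 fell, Pfk at -1.55 ± 0.30 and PyK at -1.20 ± 0.27. Without per01 replicate 2, 0 of the 13 fell, and 1 did without w1118 replicate 2, w1118 replicate 3 or orco2 replicate 3. Of 31 subunits of the vacuolar proton pump Vha100-4 alone passed.

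Some genes were present in 1 genotype and nearly silent in the other. SMC2 (chromosome 2R, 14848621 to 14852653), a condensin subunit gene chosen after its value was seen, had the smallest p of all genes. It stood at 291, 249 and 302 CPM in w1118 and 6.92, 4.66 and 3.91 CPM in per01 (log2 fold change -5.76 ± 0.28, adjusted p = 0.000203) and at 12.7, 13.9 and 13.4 CPM in orco2. mthl8 (chromosome 3L, 22428 to 26308), a gene of the Methuselah receptor family, had 1452, 1377 and 1567 counts in w1118 and 0, 0 and 0 in per01, at least 977-fold lower. CR40190, CG30429 and CG32379 also had 0 counts in all per01 libraries, at least 172-, 176- and 245-fold lower. Adh, the alcohol dehydrogenase gene, stood at 8.44, 21.6 and 30.2 CPM in w1118 and 0.18, 0.101 and 0.0466 CPM in per01 (log2 fold change -7.40 ± 0.77, adjusted p = 0.00311). It overlaps Adhr on the same strand. CG5070 had a log2 fold change of -10.33. With 2 counts each over the per01 libraries, CG43235 was 443-fold lower (exact 95% counting interval 122 to 3664) and CG8642 651-fold lower (179.9 to 5376). Among chemosensory genes the co-receptor gene Ir76b, with 140 counts in w1118 and 1 in per01, was 93.4-fold lower (interval 16.5 to 3714). The fructose receptor gene Gr43a had a log2 fold change of -3.72 ± 0.88. These intervals cover counting error only and treat each count as independent. Even numbers made up 60.4 to 75.5% of the counts between 1 and 20, so independence is doubtful and the intervals may be too narrow. For Orco itself, counts were 0, 14 and 0 in w1118 and 17, 0 and 0 in per01, and the groups overlapped. The white gene w stood at 0.554, 0.741 and 0 CPM in w1118 and 4.48, 4.76 and 2.98 CPM in per01, a log2 fold change of 3.21 ± 0.95 (adjusted p = 0.0477) that held in 6 of the 19 alternatives. w had 25, 28 and 0 counts in w1118 and 149, 94 and 64 in per01.

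By chromosome, the share of tested genes that changed was 15.9% on X, where per lies, and 18.5, 20.7, 20.5 and 18.6% on 2L, 2R, 3L and 3R. On chromosome 4 it was 21.2%, and 0 of 25 tested Y genes changed.

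Reproductive tract transcripts differed between libraries rather than cleanly between genotypes. Accessory glands, testes and ejaculatory ducts lie beside the male gut and can be carried over in dissection. The sum of 75 seminal fluid genes was 659, 2335 and 2658 CPM in w1118 and 18318, 43425 and 1579 CPM in per01. Replicates 1 and 2 of per01 lay far above all w1118 libraries, and replicate 3 lay within their range. In orco2 guts the sum was 15316, 23548 and 19746 CPM. The mean log2 difference, per01 minus w1118, was 2.75, with 1.75 without per01 replicate 2 and 4.14 without per01 replicate 3, and an exact two-sided permutation test of the sum gave p = 0.3 where the smallest possible is 0.1. Gene by gene 43 of the 73 tested rose and 0 fell. Between 4 and 58 rose over the alternatives, with 4 when the seminal level was a covariate and when only the 6 libraries were fitted. The 12 highest with separate groups ran from 6.57 to 8.23 on the log2 scale, Spn28Db (8.23 ± 1.54) and Sfp70A4 (7.45 ± 1.27) among them. Acp63F, an accessory gland protein gene, stood at 0.953, 0.317 and 2.82 CPM in w1118 and 135, 424 and 11.9 CPM in per01 (log2 fold change 7.14 ± 1.38, adjusted p = 0.0128). Its per01 libraries differed widely among themselves, with replicate 3 the lowest. Est-6, an esterase of the ejaculatory duct, stood at 60.5, 144 and 133 CPM in w1118 and 1270.0, 1789 and 69.6 CPM in per01, with overlapping groups. It was called at an adjusted p of 0.0482 and in 3 of the 18 alternatives.

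Testis transcripts were highest, within their groups, in replicate 1 of per01 and replicate 2 of w1118. The sum of 93 testis and sperm genes was 3285, 7230.4 and 2087 CPM in w1118 and 8662, 1977 and 2026 CPM in per01, and 13419.9, 22866 and 18247 CPM in orco2. The groups overlapped (exact two-sided permutation p = 0.8), and of the 88 tested 1 rose, scpr-A, by 3.01 ± 0.63. Of 9 early germline genes 0 passed by edgeR, 1 had an unadjusted p under 0.05, 0 passed by limma-voom and 1 by DESeq2's Wald test. The early germline genes piwi, aub and bgcn had -1.02 ± 0.36, -0.13 ± 0.58 and -0.73 ± 1.06.

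**Figure D5:**
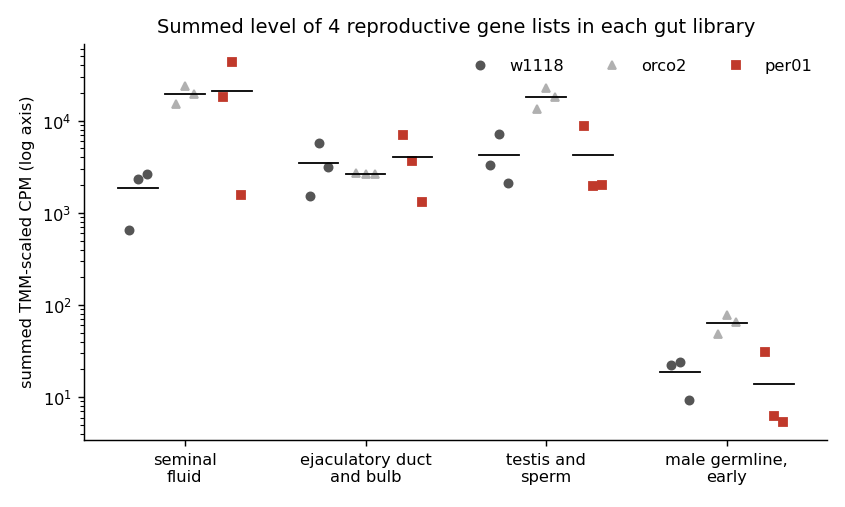
Summed TMM-scaled CPM of the 4 lists of reproductive tract genes in each day 40 gut library, on a log axis, with 3 points for each genotype and a line at their mean. For seminal fluid genes 2 of the 3 per01 libraries lie above all w1118 libraries and the third lies among them.

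Some genes outside the reproductive lists followed the same libraries. Of the other genes that rose, 113 had a within-group correlation of at least 0.8 with the seminal sum over the 9 gut libraries, as had 20 of those that fell. That is a description with no test, over 9 libraries that share 3 group means, and 3.95% of all other genes tested and 30.1% of the seminal fluid genes reached it. CG43145, CG44406, CG43056, CG43798, lncRNA:CR44311, lncRNA:CR44942 and lncRNA:CR43808 are among the 12 other genes with the highest log2 fold changes and separate libraries. CG44406 and lncRNA:CR44942 had 1 count each over the w1118 libraries. They were 1519-fold (exact 95% counting interval 272 to 60047) and 670.2-fold higher (119.7 to 26529), with each count again treated as independent. The other 5 had log2 fold changes of 8.24, 7.87, 8.09, 8.07 and 7.35, in the order named. lncRNA:CR43808, with the closest correlation, stood at 0.0443, 0.608 and 0.558 CPM in w1118 and 50.2, 142 and 3.17 CPM in per01, high in the same 2 per01 libraries. Of the digestive genes, Jon99Cii had a within-group correlation of -0.18, Amy-p of -0.23 and tobi of -0.91 with the seminal sum. With that sum as covariate 26 of 32 protease genes and 11 of 18 carbohydrate genes rose. The part of reproductive tissue carryover in the digestive results was not tested.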

How the data were processed

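The authors deposited a table of raw read counts per gene. Per the submitters' processing notes, reads were trimmed with fastp, aligned to dm6 with HISAT2 and counted with featureCounts, and DESeq2 is also named. Versions, annotation release, strand and multi-mapping settings are not given in the sources used here. Per the labels' protocols, mRNA was selected with oligo(dT) beads and libraries were amplified by PCR. Even numbers made up 60.4 to 75.5% of the counts between 1 and 20.

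Gene names and coordinates came from the Ensembl BDGP6.54 annotation on dm6. Of 18354 identifiers, 17790 had a symbol, 485 were annotated without one and 79 did not match. Genes with at least 10 counts by filterByExpr were tested with edgeR 4.0.16 (R 4.3.3, glmQLFit and glmQLFTest, TMM scaling, all 9 gut libraries, adjusted p threshold 0.05). SEs were derived from the F statistic. limma 3.58.1 and DESeq2 1.42.0 served as alternatives, of which 15 were planned and 4 were chosen after seeing the data. The steps were tested on simulated data. Bounds on folds use a floor of 3 counts over a group and cover counting error only.

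The comparison and all gene lists were chosen with earlier results of these data known. Of the list entries 1231 matched and 30 were not analysed here. Named by rule were the core clock genes, w and Orco. Also named, apart for reproductive and other genes, were the 12 highest and 12 lowest changed genes with at least 5 CPM and separate libraries. The rule further took up to 4 changed genes of each list by p, or 3 by level where none changed, and the 10 genes with the most CPM. Chosen after their values were seen were SMC2, CG7542, LysS, LysE, LysP, PGRP-SC2, Tl, Rel, Dif, imd, DptB, upd2, dome, Hsp68, Hsp26, Hsp23, Hsp83, Mal-A2, Mal-A6, Mal-A7, AstC, AstA, Tk, Dh31, InR, Thor, byn, Lgr1, btl, dpy, PPO1, Msp300, sls, sgg and wdb.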

Additional observations from a re-analysis of the deposited data

How the results depend on the processing

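No gene was called in the opposite direction by any of the 19 alternatives. The number of changed genes, 2554 as reported (1299 higher, 1255 lower), was 4403 (2006 and 2397) by DESeq2's Wald test and 4339 (751 and 3588) with plain library sizes, which moved the median log2 fold change of all genes to -0.53. The split of higher against lower calls therefore depends on the scaling. The count was 1150 (591 and 559) against a 1.5-fold threshold, 1405 (370 and 1035) with the 6 compared libraries alone, 1596 (1009 and 587) with the seminal fluid level as covariate and 989 (556 and 433) with an exon length offset. Leaving out 1 library gave 973 to 2937 changed genes, 414 to 1639 higher and 531 to 1447 lower, with 1311 (643 and 668) without orco2 replicate 3. Deviations of same-numbered replicates correlated at r = -0.00273, -0.36 and 0.12 for w1118 and per01. For w1118 and orco2 r was 0.0587, 0.151 and -0.0418, and for per01 and orco2 -0.402, -0.0215 and -0.0727. With 3 libraries a group these values cannot show whether the numbers pair the samples. A fit with the replicate number as a block gave 1294 genes (601 and 693). DESeq2 size factors, no low-count filter, limma-voom, removal of the reproductive genes and edgeR's newer quasi-likelihood fit, chosen after seeing the data, kept the counts within 1.5-fold. The planned older quasi-likelihood fit is the one reported.

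Core clock genes changed, 3 as reported, numbered 6 with plain library sizes, 5 with the length offset and 3 to 5 with a library left out. Changed members of the gut lists, 215 as reported, numbered 127 against the 1.5-fold threshold and with the 6 libraries alone, 113 with the length offset and 111 to 264 with a library left out. With the length offset scrib (0.0625), dlg1 (0.0357), tyf (0.11), InR (0.14), cwo (0.0439) and aub (0.13) turned positive, and with the seminal covariate Est-6 (-0.28) and Orco (-3.81) turned negative. Genes that were not called changed sign with a library left out, over ranges of -1.03 to 0.21 for aub, -1.13 to 0.53 for CecA1, -5.19 to 5.72 for Orco and -0.13 to 0.40 for Pdp1. Pdp1 was also negative with the 6 libraries alone (-0.0844) and with plain library sizes (-0.47). S lost its call but kept its sign with the block (-0.99), the covariate (-0.67), the 1.5-fold threshold (-0.9998) and the length offset (-0.43), and ran from -1.15 to -0.83 with a library left out. The causes were not tested.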
